A study of Mus musculus with 11 samples.

Results

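The annexins were followed through development of the floor of the mouse cochlear duct, by single-cell RNA sequencing. Members were the 8 genes Anxa1, Anxa2, Anxa3, Anxa4, Anxa5, Anxa6, Anxa7 and Anxa11, taken as listed symbols, with earlier results of these data known, among 18667 genes listed at all 4 ages. The cells came from wild-type CD1 mice, with no treatment named, at embryonic day 14 (E14, 2 libraries), embryonic day 16 (E16, 3 libraries), postnatal day 1 (P1, 4 libraries) and postnatal day 7 (P7, 2 libraries). A library held pooled cochleae of animals of either sex, so the library is the replicate and differences between animals are averaged within it. Since each age was collected separately, age and collection cannot be told apart.

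Annexins are cytosolic proteins that bind acidic phospholipids when calcium rises, through a conserved core of annexin repeats, and each has its own N-terminal tail. Through that tail some of them pair with small EF-hand proteins: Anxa2 with S100a10 in a heterotetramer, Anxa1 with S100a11, Anxa11 with S100a6 and Anxa7 with sorcin (Sri). They are known for linking membranes to each other and to cortical actin, for exocytosis and endocytosis, and for resealing torn plasma membrane. Hair cells (HCs) are the calcium-regulated mechanoreceptors of the organ of Corti, and supporting cells (SCs) surround them.

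Of 30634 cells in the 11 libraries, 1839 passed a gate of HC markers, 1547 a gate of SC (pillar and Deiters' cell) markers, 1581 a gate of markers of the lateral floor, 1487 an Oc90-high roof gate and 17428 a gate of medial floor markers (Kölliker's organ and its neighbours). The SC markers include Fgfr3, Prox1, Fzd9 and Nrcam, which the paper reports in lateral prosensory cells at E14. Those are progenitors that, in the paper, gave rise mostly to OHCs, pillar and Deiters' cells. Cells called SCs at E14 and E16 may therefore include such progenitors, which the gate does not tell apart. At P7, 146 cells passed a mesenchymal and 143 a glial gate. No annexin is in any of these marker lists, and 278 cells that passed more than 1 gate were left out, as were 6185 that passed none. Within the HC gate, IHCs (inner hair cells, 311) carried at least 2 of 7 inner markers and 2 more than outer markers, and OHCs (outer hair cells, 858) at least 2 of 10 outer markers and 1 more than inner markers. At E16 53 HCs were typed as inner (10 to 31 per library) and 89 as outer (13 to 47), and the other 419 of 561 (74.7%) as neither, against 19.9% at P1 and 7.33% at P7. The thresholds were set after the marker counts had been seen, and no doublet caller was run. Levels are the mean over a class's cells in a library of the gene's UMIs (unique molecular identifiers, counted transcripts) per 1e6 UMIs of the cell (CPM), and a level is given only where a library had at least 5 such cells. UMIs count tags and not gene lengths, so levels were compared between cells and not between genes.

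Libraries held from 1247 to 5598 cells and from 3828399 to 23523802 UMIs, and from 9 to 84 cell barcodes were shared between libraries of 1 age. At P7 the medial floor gate was of another make-up than before: Crabp1 was at 1.23 CPM against 1253 CPM at P1, and Epyc was higher in the lateral gate (6033 CPM) than in the medial floor gate (4060 CPM). The P7 lateral gate was also loose, with 188 further cells 1 marker short of its 107, as was the mesenchymal gate, with 143 short of its 146. The P7 mesenchymal gate rested on Col1a2 (2453 CPM), Col3a1 (3042 CPM) and Fbln1 (277 CPM), while Col1a1 (38.1 CPM), Postn (27.3 CPM) and Ogn (5.07 CPM) were low. At P1 the roof gate held 157 cells, with 9 to 69 per library. At P7 the roof gate held 4 cells, too few for any value. P1 replicate 4 was the P1 library with the fewest UMIs per cell (median 3831.5, against 5227 to 5647.5). It had the lowest level of the 4 in all 7 classes and hair cell types for Anxa5 and for Anxa4, and in 6 of 7 for Anxa6. For Anxa2 it was lowest in 4 of 7, for Anxa1, Anxa3 and Anxa11 in 1 of 7 each, and for Anxa7 in 0 of 7. The HC class holds the IHCs and OHCs, so the 7 are not independent. The same count was not made over all genes, and the part of depth in these levels was not tested.

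**Figure D1:**
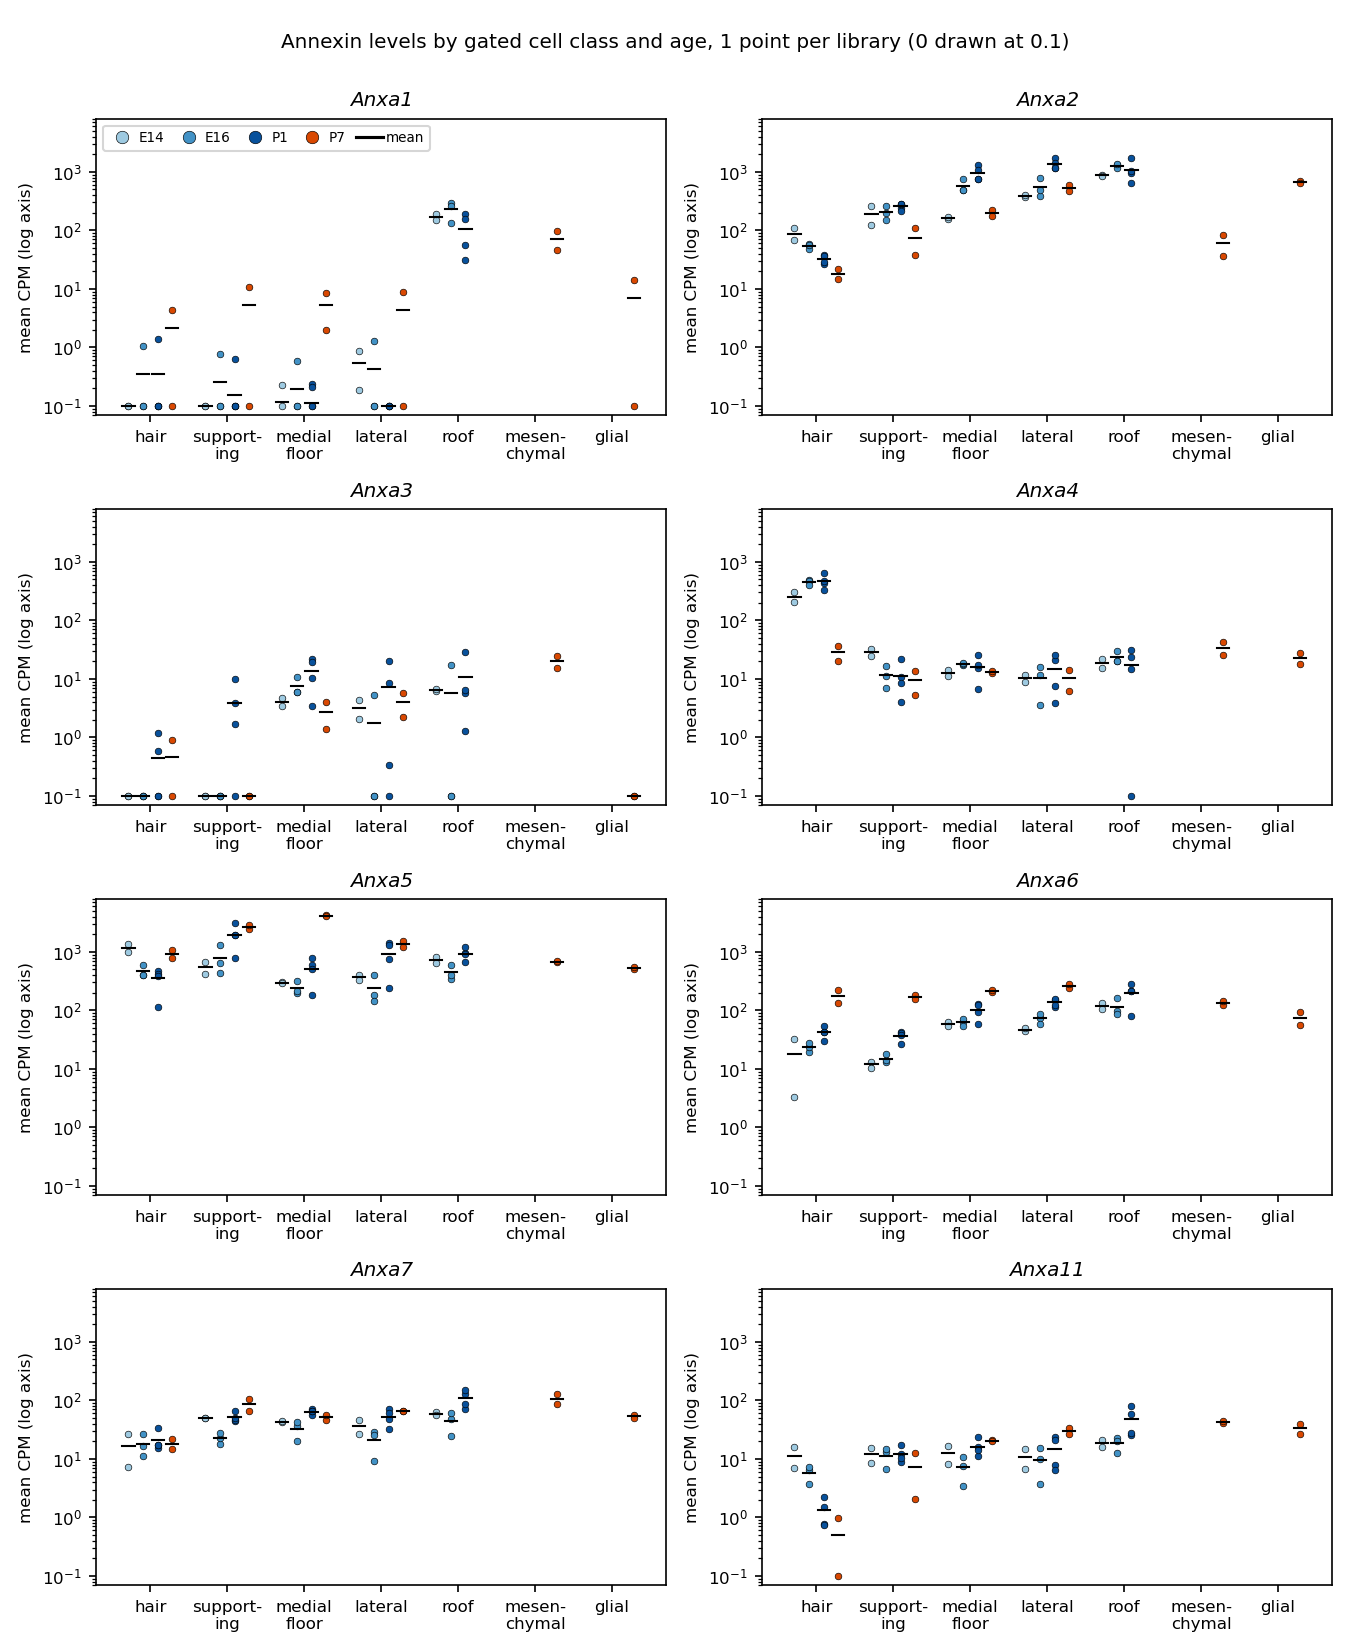
Mean level of each annexin (vertical log axis, CPM) in the gated cell classes (horizontal axis), with 1 point per library coloured by age and a bar for the mean; a value of 0 is drawn at 0.1. Anxa4 is highest in HCs until P1 (E16 mean 455 CPM, P7 mean 28.6 CPM), Anxa1 in roof cells, and Anxa5 in P7 medial floor cells (4147 CPM), while Anxa2 is lowest in HCs at every age.

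The annexins lie on 7 chromosomes, with Anxa7 (chr14:20455260-20480133) and Anxa11 (chr14:25842156-25886804) on the same one (GENCODE vM21 gene spans, mm10). Anxa4 spans chr6:86736840-86793584, Anxa2 chr9:69453620-69491795, Anxa5 chr3:36448923-36475894, Anxa1 chr19:20373428-20390944, Anxa6 chr11:54979108-55033445 and Anxa3 chr5:96793339-96845966. RefSeq promoters on GRCm38.p6 matched 6 of the 8 genes. The 250 bases before each start are shown for the 4 genes most of the results turn on, 5′ to 3′ on the gene's strand; Anxa4 has a first start at the upstream end of the gene and another inside it, and gene-level counts do not say which was used. Capitals mark matches, on either strand, to CAGCTG (an E-box of the kind bound by basic helix-loop-helix factors), CATCTG (another), TATAAA (the TATA box), TGANTCA (the AP-1 motif) or GGGCGG (a GC box), which were chosen after the sequences were seen and whose matches do not overlap here.
Anxa4, first start, chr6:86793585-86793834, minus strand: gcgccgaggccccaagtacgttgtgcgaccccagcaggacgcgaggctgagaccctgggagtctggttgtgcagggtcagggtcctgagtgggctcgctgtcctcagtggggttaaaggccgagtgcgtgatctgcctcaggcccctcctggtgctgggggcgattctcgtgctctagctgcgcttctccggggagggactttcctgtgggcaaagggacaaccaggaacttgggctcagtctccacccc
Anxa4, inner start, chr6:86775115-86775364, minus strand: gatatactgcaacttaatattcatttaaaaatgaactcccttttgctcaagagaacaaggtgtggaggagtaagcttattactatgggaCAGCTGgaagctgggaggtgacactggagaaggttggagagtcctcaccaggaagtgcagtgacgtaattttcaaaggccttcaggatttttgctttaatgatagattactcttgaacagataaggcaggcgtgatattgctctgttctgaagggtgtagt
Anxa2, chr9:69453433-69453682, plus strand: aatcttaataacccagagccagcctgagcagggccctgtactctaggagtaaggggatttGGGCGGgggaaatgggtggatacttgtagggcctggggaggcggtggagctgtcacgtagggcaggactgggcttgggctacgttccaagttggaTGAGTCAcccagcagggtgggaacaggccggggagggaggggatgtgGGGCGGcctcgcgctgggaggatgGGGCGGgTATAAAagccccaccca
Anxa5, chr3:36475888-36476137, minus strand: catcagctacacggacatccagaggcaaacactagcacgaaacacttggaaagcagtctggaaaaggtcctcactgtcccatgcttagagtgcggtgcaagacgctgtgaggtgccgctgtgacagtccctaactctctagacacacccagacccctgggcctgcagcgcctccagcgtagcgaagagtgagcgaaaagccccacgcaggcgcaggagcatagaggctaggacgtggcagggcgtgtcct
Anxa1, chr19:20390672-20390921, minus strand: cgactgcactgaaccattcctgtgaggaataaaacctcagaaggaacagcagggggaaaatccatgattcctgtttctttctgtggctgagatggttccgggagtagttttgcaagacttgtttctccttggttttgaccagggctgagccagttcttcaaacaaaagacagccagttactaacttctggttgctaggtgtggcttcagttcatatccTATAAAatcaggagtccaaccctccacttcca

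The inner start of Anxa4 held 1 CAGCTG, 161 bases before the start, a motif in 13.0% of the 32851 promoter windows, and neither Anxa4 window held CATCTG, which is in 14.4%. The first start of Anxa4 and the Anxa5 start held none of the 5 motifs and had 13 CpG dinucleotides each, against a median of 6 over all windows. Anxa2 held TATAAA (12.4% of windows) 17 bases and TGANTCA (6.75%) 95 bases before its start, and 3 copies of GGGCGG (32.7%). Anxa1 held TATAAA 32 bases before its start. These are matches of letters, not sites.

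Anxa4, which binds membranes in secretory epithelia, was high in HCs until P1. Its HC level was 207 and 303 CPM in the E14 libraries, 489, 470 and 407 CPM at E16, and 647, 442, 462 and 333 CPM at P1, then 36.5 and 20.6 CPM at P7. Medial floor cells had 17.6, 18.3 and 18.5 CPM at E16, 25.2, 15.5, 17.3 and 6.80 CPM at P1 and 12.8 and 13.9 CPM at P7. Up to P1 the HCs of each library were far above all other classes, with no overlap, and at P7 they lay among the mesenchymal (25.7 and 41.9 CPM) and glial cells (18.3 and 27.9 CPM).

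On the log2(CPM + 10) scale used for all tests, Anxa4 was higher in HCs than in medial floor cells by 4.04 ± 0.31 (SE, n = 3 libraries; limma, adjusted p = 2.73e-15) at E16 and by 4.21 ± 0.27 (n = 4, adjusted p = 1.16e-18) at P1. At P7 the difference was 0.69 ± 0.37 (n = 2, adjusted p = 0.149) and did not pass the threshold of 0.05, though it did with array weights (adjusted p = 0.00694). The difference changed by -3.52 ± 0.46 from P1 to P7 (adjusted p = 7.82e-08 for the interaction). Within HCs, Anxa4 fell by 3.63 ± 0.28 from P1 to P7 (adjusted p = 2.11e-08), and the change from E16 to P1 was 0.01 ± 0.25 (adjusted p = 0.982).

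Shares of cells with an Anxa4 UMI were also set side by side. With each cell thinned to 1500 UMIs, 48.0% ± 9.62 of P1 HCs (SD, n = 4; 87.1% before thinning) held one, against 2.44% ± 1.26 of P1 medial floor cells (7.32% before thinning). At P7 the shares were 2.63% ± 1.38 in HCs and 1.48% ± 0.02 in medial floor cells (n = 2) (14.4% and 6.28% before thinning). At P1 the mean levels of roof (17.5 CPM), medial floor (16.2 CPM), lateral (14.6 CPM) and supporting cells (11.3 CPM) stood in that order, each overlapping the next.

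Both types of hair cell had Anxa4. At P1 IHCs had 502, 260, 310 and 183 CPM, and OHCs had 691, 486, 514 and 380 CPM. OHCs were higher in each of the 4 libraries, but the ranges overlapped and the difference of -0.76 ± 0.22 missed the threshold (IHCs minus OHCs, adjusted p = 0.151). At P7 IHCs (41.6 and 23.6 CPM) and OHCs (40.5 and 18.8 CPM) overlapped, with a difference of 0.12 ± 0.31 (adjusted p = 0.998).

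Anxa5, a small annexin that forms lattices on membranes with exposed phosphatidylserine, differed between the HC types at E16 and P1. In IHCs it was at 956, 1112 and 1944 CPM at E16 and at 1227, 1224, 1129 and 321 CPM at P1, where the 321 CPM was replicate 4. In OHCs it was at 164, 172 and 127 CPM at E16 and at 210, 151, 152 and 74.0 CPM at P1. IHCs were above OHCs in every E16 and P1 library, with no overlap in either age, replicate 4 included.

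The IHC-OHC difference in Anxa5 was 2.98 ± 0.25 at E16 (n = 3, adjusted p = 4.46e-05) and 2.56 ± 0.22 at P1 (n = 4, adjusted p = 2.23e-05). At P7, IHCs had 956 and 837 CPM and OHCs 1144 and 772 CPM. The P7 groups overlapped, with a difference of -0.07 ± 0.31 (n = 2, adjusted p = 1.00), and the difference dropped by 2.63 ± 0.38 from P1 to P7 (adjusted p = 0.00544 for the interaction). With thinning, 60.6% ± 16.8 of P1 IHCs and 18.4% ± 6.29 of P1 OHCs held an Anxa5 UMI (89.2% and 53.1% before), against 58.8% ± 15.9 and 74.4% ± 12.2 at P7 (96.2% and 94.5% before). The mean OHC level was 147 CPM at P1 and 958 CPM at P7, and the mean IHC level 975 and 897 CPM; the change with age within each type was not tested.

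**Figure D2:**
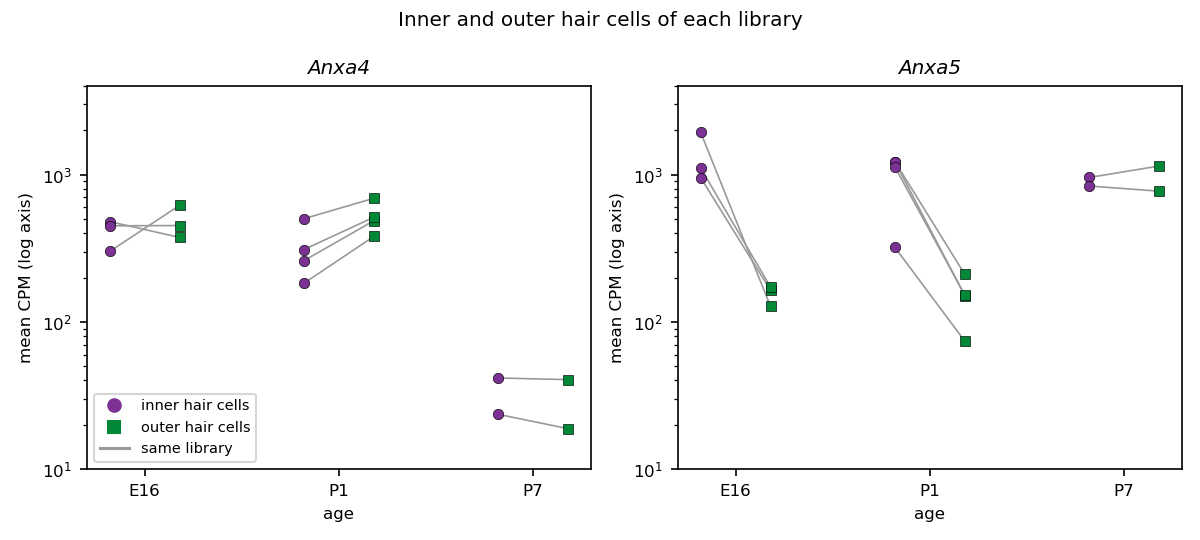
Anxa4 and Anxa5 in inner (circles) and outer (squares) hair cells by age, as mean CPM on a log axis, with a grey line joining the 2 types of each library. All 7 lines for Anxa5 slope down at E16 and P1, and at P7 the types lie together (means 897 and 958 CPM); Anxa4 falls in both types at P7.

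In SCs, Anxa5 was at 440, 642 and 1321 CPM at E16 and at 3072, 1910, 1940 and 793 CPM at P1. Medial floor cells of those libraries had 196, 211 and 319 CPM, and 786, 590, 515 and 185 CPM. SCs were above medial floor cells in all 7 libraries and the groups did not overlap at either age, by 1.57 ± 0.23 (adjusted p = 6.89e-07) at E16 and 1.89 ± 0.20 (adjusted p = 1.14e-10) at P1. With stricter gates the E16 difference was 0.93 (adjusted p = 0.0178).

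At P7, medial floor cells had 4230 and 4065 CPM of Anxa5 and SCs 2497 and 2902 CPM. The medial floor libraries were now the higher, with no overlap, though the difference of -0.62 ± 0.28 was not called (adjusted p = 0.159). It was called with summed UMIs (-0.85, adjusted p = 0.0331), only the P7 libraries (adjusted p = 0.0193) or array weights (adjusted p = 0.0139). The SC difference changed by -2.51 ± 0.34 from P1 to P7 (adjusted p = 5.78e-07). In medial floor cells Anxa5 rose by 3.14 ± 0.41 from P1 to P7 (adjusted p = 6.56e-05), a 7.99-fold ratio of the means. The gate's cells differed in make-up between these ages as given above, and its part in the rise was not tested; over all cells of a library, gated or not, Anxa5 was at 254 to 1100 CPM at P1 and at 2839 and 3568 CPM at P7.

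HCs as a whole had 405, 397 and 602 CPM of Anxa5 at E16, 477, 425, 389 and 115 CPM at P1 and 1068 and 793 CPM at P7, after 1010 and 1340 CPM in the few E14 HCs. Against medial floor cells they were higher at E16 by 0.93 ± 0.23 (adjusted p = 0.00155), lower at P1, at -0.55 ± 0.20 (adjusted p = 0.0205) and lower at P7, at -2.16 ± 0.28 (adjusted p = 1.34e-08). Without the library as a block the first 2 of these calls were lost (adjusted p = 0.211 and 0.314), and the P1 call was also lost without P1 replicate 1 (adjusted p = 0.0588), with stricter gates (-0.44, adjusted p = 0.18), with no low-value filter (adjusted p = 0.0550) and with only the P1 libraries (adjusted p = 0.0657). The HC gate held both types, which lay on both sides of the medial floor, and cells of neither: E16 OHCs (127 to 172 CPM) were below it and E16 IHCs (956 to 1944 CPM) above, and at P1 the means were 147 CPM in OHCs, 519 CPM in the medial floor and 975 CPM in IHCs. From P1 to P7 the HC level rose by 1.54 ± 0.39 (adjusted p = 0.00961), a call lost without P7 replicate 4 (adjusted p = 0.150) or P7 replicate 5 (adjusted p = 0.0582) and with no low-value filter (adjusted p = 0.0569). Epyc, a marker of the medial floor gate at 4060 CPM in its P7 cells, was at 58.0 CPM in P7 HCs, 234 CPM in mesenchymal and 113 CPM in glial cells, where Anxa5 was at 930, 684 and 527 CPM. Epyc is 1 marker, and at P7 it was higher still in the lateral gate. The part of free RNA from other cells in these Anxa5 levels was not tested.

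Roof cells also exceeded medial floor cells in Anxa5, with 345, 394 and 598 CPM at E16 and 945, 1223, 909 and 668 CPM at P1. The groups did not overlap at E16 and did at P1. The differences were 0.85 ± 0.23 (adjusted p = 0.00711) and 0.98 ± 0.20 (adjusted p = 0.000128), and both were lost without the library block (adjusted p = 0.396 and 0.08). The E16 call was also lost without E16 replicate 2 (adjusted p = 0.0647) or 3 (adjusted p = 0.0563). Lateral cells had 756, 1416, 1305 and 238 CPM at P1, which overlapped medial floor cells, and 1521 and 1190 CPM at P7, which did not. Their differences were 0.72 ± 0.20 (adjusted p = 0.0102) and -1.62 ± 0.28 (adjusted p = 0.000261). Both were lost without the block (adjusted p = 0.484 and 0.494). The P1 call was also lost without P1 replicate 2 (adjusted p = 0.181) or 3 (adjusted p = 0.199) and with only the P1 libraries (adjusted p = 0.0624), and with stricter gates the P1 difference was 0.20 (adjusted p = 0.920). The P7 call was also lost without P7 replicate 5 (adjusted p = 0.316).

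Anxa2, the partner of S100a10 in the tetramer that bridges membranes and cortical actin, was low in HCs at every age. HCs had 68.3 and 108 CPM at E14, 48.1, 58.2 and 55.7 CPM at E16, 38.3, 36.4, 26.3 and 28.7 CPM at P1 and 21.5 and 14.6 CPM at P7. Medial floor cells had 155 and 172, then 485, 493 and 744, then 766, 1311, 1066 and 741 CPM, and 222 and 178 CPM at P7. The HC libraries lay below all medial floor libraries of their age, and below all SC libraries, at each of the 4 ages.

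HCs were lower than medial floor cells in Anxa2, with log2 differences of -3.16 ± 0.22 at E16 (adjusted p = 7.87e-17), -4.50 ± 0.19 at P1 (adjusted p = 1.68e-25) and -2.91 ± 0.26 at P7 (adjusted p = 6.84e-13). The difference changed by -1.34 ± 0.29 from E16 to P1 (adjusted p = 0.00130) and by 1.59 ± 0.32 from P1 to P7 (adjusted p = 0.000264). Epyc, a medial floor marker, was in HCs at 4.04% of its medial floor level at E16, 2.62% at P1 and 1.43% at P7, and Anxa2 at 9.41%, 3.34% and 9.03%. At the Epyc percentage, P1 HCs would hold 25.4 CPM of Anxa2, where 32.4 CPM was measured. E16 HCs would hold 23.2 CPM (54.0 CPM measured), P7 HCs 2.85 CPM (18.0 CPM measured) and the few E14 HCs 0.21 CPM (88.3 CPM measured). These figures rest on 1 of the 10 medial floor markers, and the others differed. At E14, HCs had 1091 CPM of Ebf1 against 1188 CPM in medial floor cells, and 205 against 808 CPM of Tecta. Crabp1 and Clic6 were at 0 CPM in those HCs, against 151 and 392 CPM. At P7 Epyc was also higher in the lateral gate than in the medial floor gate. The part of free RNA in these levels, and in the changes of the difference with age, was not tested. SCs were between both, with 198, 150 and 261 CPM at E16, 244, 285, 279 and 218 CPM at P1 and 108 and 38.2 CPM at P7. SCs were lower than medial floor cells, with log2 differences of -1.46 ± 0.22 (adjusted p = 9.01e-07), -1.85 ± 0.19 (adjusted p = 4.28e-11) and -1.47 ± 0.26 (adjusted p = 3.93e-05). The P7 SC call was lost without P7 replicate 5 (-0.97, adjusted p = 0.0826).

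In the medial floor gate, Anxa2 fell by 2.19 ± 0.25 from P1 to P7 (adjusted p = 2.45e-05). From E16 to P1 it had risen by 0.74 ± 0.22 (adjusted p = 0.0429), a call lost under 9 of 14 other settings, among them leaving out E16 replicate 1 or 2 or P1 replicate 2 or 3 (adjusted p = 0.104 to 0.189). In SCs it fell by 1.81 ± 0.36 from P1 to P7 (adjusted p = 0.00388), a call lost without P7 replicate 5 (-1.17, adjusted p = 0.203). Lateral cells had 1184, 1734, 1401 and 1183 CPM at P1 and 472 and 608 CPM at P7, a change with age that was not tested. At P7 they were above the medial floor gate by 1.39 ± 0.26 (adjusted p = 0.00102). That call was lost without P7 replicate 5 (adjusted p = 0.587), without the library block (adjusted p = 0.0770) and with only the P7 libraries (adjusted p = 0.0680). Glial cells had 691 and 652 CPM and mesenchymal cells 83.4 and 36.1 CPM at P7, the latter below medial floor cells, at -1.67 ± 0.26 (adjusted p = 2.03e-06). Roof cells had 1325, 1163 and 1344 CPM at E16, above medial floor cells by 1.17 ± 0.22 (adjusted p = 5.49e-05), and at P1 974, 1694, 1047 and 640 CPM, overlapping them (0.12 ± 0.19, adjusted p = 0.680).

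IHCs had more Anxa2 than OHCs at E16 (174, 79.6 and 156 CPM against 0, 32.9 and 42.8 CPM), by 2.31 ± 0.61 (adjusted p = 0.0489). This rested on few UMIs, from 7 to 13 per library in IHCs and 0 to 12 in OHCs, and was lost without E16 replicate 1 (1.36, adjusted p = 0.113) and under 5 other settings, among them a pseudocount of 1 CPM (3.51, adjusted p = 0.116), so its size is not stable. At P1 the types overlapped, with 29.4, 4.22, 39.8 and 14.8 CPM in IHCs and 34.7, 47.8, 23.3 and 28.6 CPM in OHCs (-0.57 ± 0.53, adjusted p = 1.00).

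**Figure D3:**
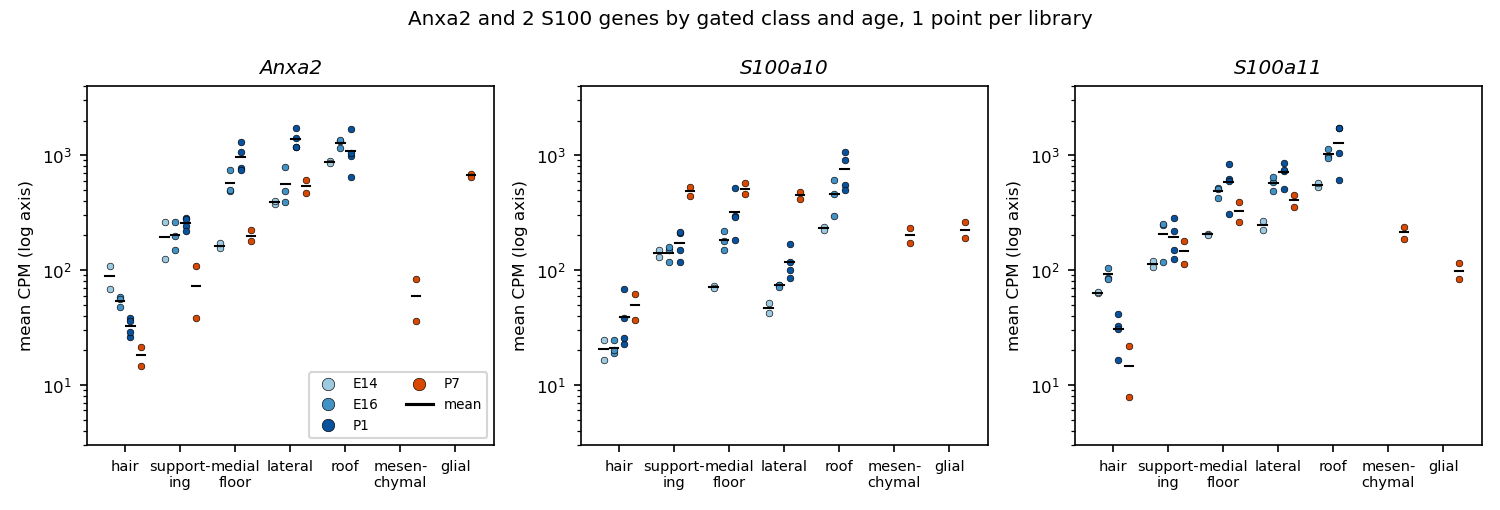
Anxa2 and the S100 genes S100a10 and S100a11 by gated class, as mean CPM on a log axis, with 1 point per library coloured by age and a bar for the mean. In HCs all 3 are lowest of all classes at P1 (32.4, 38.9 and 30.4 CPM), and in roof cells S100a10 and S100a11 are highest (756 and 1270 CPM).

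Anxa1, known as the glucocorticoid-induced anti-inflammatory annexin, was highest in roof cells up to P1. At P7 it was highest in the mesenchymal gate, from 35 UMIs over 146 cells, and no cells passed that gate before P7. Roof cells had 152 and 192 CPM at E14, 294, 135 and 257 CPM at E16 and 187, 157, 55.6 and 30.7 CPM at P1, of which the third came from 2 UMIs in 9 cells. In the P1 medial floor gate 7 Anxa1 UMIs were counted over 10301 cells, and in P1 lateral cells none over 365 cells, which allows up to 3 UMIs. No roof library overlapped any other class at these ages.

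Anxa1 reached the level needed for a test only through roof and mesenchymal cells, so its differences from that fit are a description. Roof minus medial floor was 4.48 at E16 and 3.26 at P1, or 7.54 and 6.27 with 1 CPM in place of 10 CPM added before the logarithm. In the limma fit with no filter on low values, which sets no minimum level, the adjusted p was 1.86e-11 and 4.72e-10. At P7 mesenchymal cells had 97.1 and 45.5 CPM against 2.02 and 8.48 CPM in medial floor cells. That was a difference of 2.37 (adjusted p = 0.000125 with no filter), or 3.66 with 1 CPM added, and without P7 replicate 4 it was 1.59, not called in the filtered fit (adjusted p = 0.0504). Thinned to 1500 UMIs, 15.7% ± 1.43 of E16 roof cells and 6.26% ± 0.37 of P7 mesenchymal cells held an Anxa1 UMI (22.0% and 11.4% before), against 0.02% ± 0.03 of E16 and 0.97% ± 0.75 of P7 medial floor cells (0.05% and 2.34% before).

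Anxa6, the large annexin with a doubled core, was lower in both cell types of the organ of Corti than in the medial floor at E16 and P1. HCs had 19.6, 23.3 and 28.1 CPM at E16, 42.2, 54.3, 42.5 and 30.0 CPM at P1 and 131 and 221 CPM at P7. SCs had 13.2, 13.9 and 18.0 CPM, then 43.5, 41.3, 37.7 and 26.2 CPM, then 180 and 156 CPM. Medial floor cells had 64.1, 54.1 and 70.2 CPM, then 92.8, 128, 125 and 59.0 CPM, then 208 and 227 CPM.

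HCs and SCs did not overlap with medial floor cells at E16 or P1. HCs were lower in Anxa6, at -1.12 ± 0.26 at E16 (adjusted p = 0.000706) and -1.06 ± 0.22 at P1 (adjusted p = 0.000103), and SCs, at -1.54 ± 0.26 (adjusted p = 9.95e-06) and -1.20 ± 0.22 (adjusted p = 4.23e-05). At P7 the differences were -0.33 ± 0.32 (adjusted p = 0.444) and -0.36 ± 0.32 (adjusted p = 0.582), and SCs still lay below the medial floor cells. From P1 to P7 Anxa6 rose in HCs by 1.81 ± 0.39 (adjusted p = 0.00274), in SCs by 1.93 ± 0.35 (adjusted p = 0.00185) and in medial floor cells by 1.08 ± 0.25 (adjusted p = 0.00626). The HC call was lost without P7 replicate 5 (adjusted p = 0.121), the SC call without P7 replicate 4 (adjusted p = 0.0754) or with stricter gates (adjusted p = 0.145) and the medial floor call without either (adjusted p just over 0.05 without P7 replicate 4 and 0.0743 without replicate 5). Roof cells had the highest mean up to P1 (198 ± 83.9 CPM at P1, SD, n = 4), but their libraries overlapped lateral cells at E16 and P1, where they went from 80.3 to 279 CPM against 115 to 158 CPM. They were above medial floor cells by 0.74 ± 0.26 at E16 (adjusted p = 0.0498, lost under 9 of 12 other settings, among them the fits without any 1 of the 3 E16 libraries, adjusted p = 0.103 to 0.373) and 0.83 ± 0.22 at P1 (adjusted p = 0.00342).

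Anxa7 and Anxa11, the annexins with long disordered tails (Anxa11 ties RNA granules to lysosomes), were lower in HCs than in medial floor cells at P1 and P7. For Anxa7 the P1 HC libraries had 15.3, 17.5, 17.2 and 34.1 CPM and medial floor cells 55.8, 69.9, 66.0 and 65.0 CPM. The groups did not overlap, and HCs were lower, at -1.29 ± 0.25 (adjusted p = 2.50e-05). The P7 difference was -1.14 ± 0.35 (adjusted p = 0.00833), lost without P7 replicate 5 (adjusted p = 0.277), with stricter gates (adjusted p = 0.136) and without high-UMI cells (adjusted p = 0.0541), and at E16 it was -0.61 ± 0.29 (adjusted p = 0.135, but 0.000459 with array weights).

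In medial floor cells Anxa7 went from 20.3, 36.2 and 42.3 CPM at E16 to the P1 values above, a rise of 0.82 ± 0.19 (adjusted p = 0.0127) that was lost without E16 replicate 1 (adjusted p = 0.0746). P1 roof cells had 128, 70.0, 151 and 86.7 CPM of Anxa7, higher than medial floor cells by 0.63 ± 0.25 (adjusted p = 0.0495), a call that 11 of 13 other settings ended, among them the fits without P1 replicate 1, 3 or 4 (adjusted p = 0.0645 to 0.257).

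Anxa11 was at 0.78, 0.75, 1.51 and 2.23 CPM in P1 HCs, from 12 UMIs over 1001 cells, against 15.7, 11.1, 14.2 and 23.7 CPM in medial floor cells. HCs were lower without overlap, at -1.19 ± 0.27 (adjusted p = 0.000277) at P1 and -1.54 ± 0.38 (adjusted p = 0.00109) at P7, with 1 UMI over 232 HCs. With 1 CPM in place of 10 CPM added, these differences were -2.89 and -3.92, so their size depends on that constant. P1 roof cells had 25.1, 59.6, 27.8 and 81.1 CPM, above medial floor cells by 1.06 ± 0.27 (adjusted p = 0.00206). These roof values came from 36 UMIs over 157 cells. Anxa3, an annexin described in neutrophils and microglia, stayed at or below 20.1 CPM as a class mean, that of P7 mesenchymal cells (15.3 and 24.9 CPM), had 0 UMIs in 561 HCs and 374 SCs of E16, and fell under the level needed for a test.

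Counted over comparisons, 7 of the 8 annexins reached the mean of 10 CPM over all profiles that a test between classes required, Anxa1 doing so through roof and mesenchymal cells. All class comparisons at an age share its medial floor or HC libraries. With 7 genes, the counts describe these members and no test of the list was made. HCs against medial floor cells gave 4 called at E16 (2 higher, 2 lower), 6 at P1 (1 higher, 5 lower) and 4 at P7 (all lower). Of all 9305 genes tested, 22.2%, 43% and 36.7% were called in those comparisons. The median log2 difference of the 7 annexins at P1 was -1.06, against 0.05 over all genes, and at P7 -1.14 against 0.04. Without Anxa1, which was called in none of these, the medians of the other 6 were -1.12 and -1.34.

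SCs against medial floor cells gave 3 called at E16 and 3 at P1 (Anxa5 higher, Anxa2 and Anxa6 lower in both) and 1 at P7 (Anxa2 lower), where 11.9%, 15% and 12.9% of genes were called. HCs against SCs gave 3 called at E16, 5 at P1 and 4 at P7, against 21.8%, 39.3% and 33.3% of genes. Anxa4 was the member higher in HCs at each age, at P7 by 0.98 ± 0.37 (adjusted p = 0.0385), a call lost under 6 of 11 other settings, among them the fits without P7 replicate 4 (0.36, adjusted p = 0.706), with a pseudocount of 1 CPM (1.55, adjusted p = 0.0997) and without the library block (adjusted p = 0.118). Anxa2 was lower in HCs than in SCs at the 3 ages, and Anxa5 at P1 and P7. Anxa5 at E16 was -0.64 ± 0.23 (adjusted p = 0.0373), a call lost under 7 of 12 other settings. These were the fits without the block (adjusted p = 0.439), without E16 replicate 2 (adjusted p = 0.143) or 3 (-0.40, adjusted p = 0.371), with a pseudocount of 1 CPM (adjusted p = 0.0593), no filter (adjusted p = 0.0902) or summed UMIs (adjusted p = 0.139), and with stricter gates, where it turned to 0.13 (adjusted p = 0.775). Anxa7 was lower at P1 and P7 and Anxa11 at P1.

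Roof cells were higher than medial floor cells in 4 annexins at E16 and in 5 at P1, and lower in none; 12% and 30.1% of genes were called. Without Anxa1, 3 of 6 were called at E16 and 4 of 6 at P1. The medians of those 6 were both 0.73, against 0.01 and -0.11 over all genes. Lateral cells gave no call at E16, 1 at P1 and 2 at P7, against 7.3%, 10.4% and 0.892% of genes. At E16 none had an unadjusted p under 0.05 either, against 15.9% of genes. Mesenchymal cells at P7 gave 3 called, of which 2 remain without Anxa1, both lower, against 20.2%. All 7, Anxa1 among them, had an unadjusted p under 0.05, against 30.0% of genes. Anxa4, Anxa7 and Anxa11 were higher but not called (33.8, 108 and 43.2 CPM against 13.4, 52.0 and 20.4 CPM), and Anxa6 was lower but not called (133 against 217 CPM). Anxa7 was called with only the P7 libraries (0.90, adjusted p = 0.0453).

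**Figure D4:**
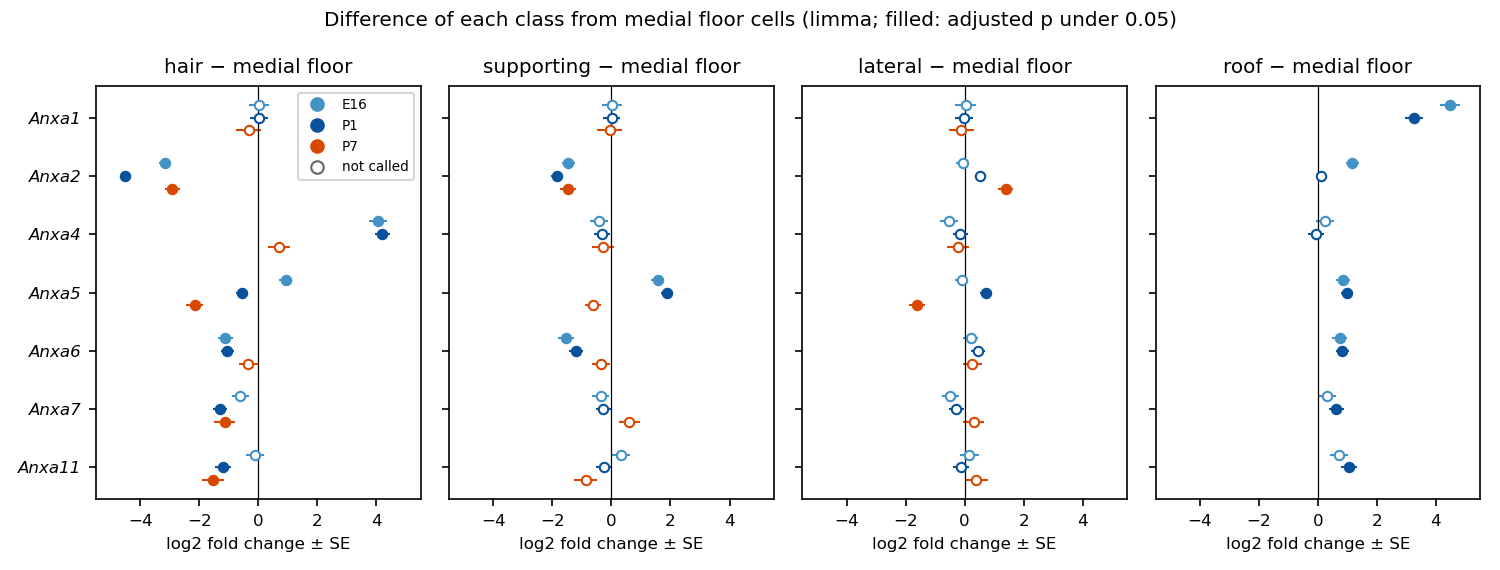
Log2 difference (± SE) from medial floor cells of the same libraries for the 7 tested annexins in HCs, SCs, lateral and roof cells, coloured by age; filled points passed the adjusted p threshold of 0.05. Called HC points lie left of 0 apart from Anxa4 (4.21 at P1) and Anxa5 at E16 (0.93), and called roof points lie right of 0.

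For IHCs against OHCs, 5 of the 8 annexins could be tested. Anxa2 and Anxa5 were called at E16, Anxa5 at P1 and none at P7, while 4.91%, 1.58% and 1.98% of 8945 genes were called. At P7, 1 had an unadjusted p under 0.05, against 10.9% of genes. From E16 to P1 no annexin of 5 was called in HCs and none of 6 in SCs, against 14.6% and 1.79% of genes. In medial floor cells 2 of 6 were called (Anxa2 and Anxa7 higher), against 14.6% of genes. At an unadjusted p under 0.05 there were 1 in HCs, 3 in SCs and 5 in medial floor cells, against 27.6%, 13.9% and 29.6% of genes. In SCs, Anxa5 from E16 to P1 was 1.26 ± 0.38 (adjusted p = 0.109), and it passed without P1 replicate 4 (1.63, adjusted p = 0.0229) or E16 replicate 3 (1.69, adjusted p = 0.0212). Without P1 replicate 4 the medial floor count was 4, with Anxa5 (1.35, adjusted p = 0.00124) and Anxa6 (0.77, adjusted p = 0.00620) also called. From P1 to P7, 3 were called in HCs (Anxa5 and Anxa6 higher, Anxa4 lower), 2 in SCs (Anxa6 higher, Anxa2 lower) and 3 in medial floor cells (Anxa5 and Anxa6 higher, Anxa2 lower), against 16.8%, 6.13% and 25.6% of genes.

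A list of 30 further genes held S100 partners, calpains, ferlins, copines, ESCRT and EHD genes, receptors and the remaining annexins. It joins annexin partners with other membrane-binding genes, so its counts are not of partners alone. Of the 30, 24 were listed at all ages and 16 could be tested between classes. In P1 HCs 1 was higher and 11 lower than in medial floor cells, and in P1 SCs 2 were higher and 5 lower, where 15% of all genes were called. The median difference of the 16 in HCs was -1.18, with 0.05 over all genes, of which 43% were called. S100a11, the partner of Anxa1, had 41.8, 32.8, 30.6 and 16.6 CPM in P1 HCs and 835, 624, 595 and 305 CPM in medial floor cells, a difference of -3.85 ± 0.15 (adjusted p = 3.19e-26). S100a10, the partner of Anxa2, had 68.9, 22.9, 38.3 and 25.4 CPM against 519, 297, 289 and 184 CPM, a difference of -2.76 ± 0.22 (adjusted p = 2.48e-15). Neither gene's groups overlapped.

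Plat, the tissue plasminogen activator whose cell-surface receptor includes Anxa2, was at 24.5 CPM in P1 HCs and 347 CPM in medial floor cells (-3.42 ± 0.22, adjusted p = 1.44e-18). Pdcd6ip, the ESCRT adaptor ALIX, was the gene higher in HCs, at 72.6 against 40.6 CPM (0.70 ± 0.27, adjusted p = 0.0345). In SCs the same 3 genes led the lower ones: S100a11 at 195 CPM (-1.53 ± 0.15, adjusted p = 2.97e-11), Plat at 165 CPM (-1.06 ± 0.22, adjusted p = 0.000181) and S100a10 at 172 CPM (-0.81 ± 0.22, adjusted p = 0.00497). Higher in SCs were Capn2, the large subunit of m-calpain, at 150 against 68.3 CPM (1.06 ± 0.24, adjusted p = 0.000870), and S100a6, the partner of Anxa11, at 161 against 80.2 CPM (0.97 ± 0.32, adjusted p = 0.0303). At E16 HCs had 1 of the 16 higher and 7 lower, where 22.2% of all genes were called, and at P7 2 higher and 8 lower, where 36.7% were. Roof cells had 6 higher and 1 lower at E16 (12% of all genes called) and 6 higher and 2 lower at P1 (30.1%).

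Over the 57 class-by-library profiles, which share libraries and depth, the annexins did not run as 1 group. Pearson correlations of log2(CPM + 10) between members ran from -0.59 (Anxa2 with Anxa4) to 0.67 (Anxa7 with Anxa11). The genes most like each member among at least 9217 others tested, with gate markers left out, were these. For Anxa4 they were Ccl21a (0.94), Tmem173 (0.93) and Mogat1 (0.93), Ccl21a belonging to a family of near-identical copies whose counts are uncertain. For Anxa1 they were Tbx1 (0.94), Fam20a (0.92) and Cacna2d1 (0.92), and for Anxa2 S100a11 (0.87), Cdc42ep5 (0.85) and Npc2 (0.82).

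The others had weaker neighbours. Anxa7 was nearest to Fam234a (0.83), Tspan7 (0.83) and Xbp1 (0.81), Anxa11 to B2m (0.78), Cyba (0.77) and Kdelr1 (0.75), Anxa6 to Khk (0.76), Cebpb (0.76) and Naglu (0.75), Anxa5 to Pxmp2 (0.75), Acadvl (0.71) and Chst8 (0.69), and Anxa3 to Tnfrsf19 (0.70), Serpinf1 (0.66) and Sparcl1 (0.66).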

How the data were processed

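Cells of 11 libraries were captured on the 10x Chromium system. Per the submitters' processing notes, reads were processed with Cell Ranger 2.1.1 (mm10) and Seurat 2.0; the deposited values are the natural log of 1 plus each gene's share of a cell's UMIs times 10000, by the authors. They were turned back to shares and scaled to 1e6 (CPM), and 100% of values corresponded to an integer number of UMIs to within 2%. Member genes and lists were chosen with earlier results of these data known. Cells were gated on marker lists and CPM averaged per class and library. Differences were fitted with limma 3.58.1 (R 4.3.3, trended empirical Bayes) on log2(CPM + 10), on genes averaging 10 CPM or more over the profiles. The p-values were adjusted over every gene tested (Benjamini-Hochberg, threshold 0.05). Classes of 1 library come from the same animals, so class and IHC-OHC fits had the library as a block; age fits, run per class over all ages, had none. E14 was in the class and age fits but not in the IHC-OHC fit, and its values are given without a test. Named were the 8 annexins, at most 3 called partner genes per direction in HCs and SCs at P1, and the 3 nearest genes per member by Pearson correlation. Settings tried were another pseudocount, no low-value filter, stricter gates, summed UMIs, no high-UMI cells, other blocks, single ages, array weights, each library left out, and, chosen after seeing the data, median-centred profiles. The limma fits were also run on simulated log2 values with normal residuals. That run did not cover the gates, the pseudocount, the low-value filter or values from few UMIs. Figures used matplotlib 3.10.9.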

Additional observations from a re-analysis of the deposited data

Results flagged for a closer look

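For 2 of 42 P1 groups of 4 libraries, 1 library stood apart by Dixon's test, which chance gives in about 1 of 20 groups. Anxa5 in P1 IHCs was lowest in replicate 4 (321 CPM, with the others between 1129 and 1227 CPM; ratio 0.891), and Anxa7 in P1 HCs was highest in replicate 4 (34.1 CPM, with the others between 15.3 and 17.5 CPM; ratio 0.885). No cause was tested.

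Of 38 tests of whether a member's difference changed between ages, 7 passed (limma interaction, adjusted over all genes). The share of all genes that passed was not counted for these tests, so the 7 are a description of these members. Anxa2 in HCs against medial floor cells changed by -1.34 from E16 to P1 (adjusted p = 0.00130) and by 1.59 from P1 to P7 (adjusted p = 0.000264). Anxa4 in the same comparison changed by -3.52 from P1 to P7 (adjusted p = 7.82e-08). Anxa5 changed there by -1.48 from E16 to P1 (adjusted p = 0.000758) and by -1.61 from P1 to P7 (adjusted p = 0.000522). Anxa5 in SCs against medial floor cells changed by -2.51 from P1 to P7 (adjusted p = 5.78e-07), and in IHCs against OHCs by -2.63 (adjusted p = 0.00544). The P1 to P7 changes against medial floor cells share that gate, whose markers differed between these ages.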

How the results depend on the processing

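Of 24 counts of called annexins, 14 stayed within 1.5 times under all settings tried, and of 61 called member differences 39 stayed called throughout. A count of 0 that stayed at 0 was scored as unchanged. The 61 include Anxa1 in roof cells at E16 and P1 and in P7 mesenchymal cells, which are a description as given above. IHCs against OHCs at E16 had 2 called, and 1 with a pseudocount of 1 CPM, no filter, stricter gates, summed UMIs or median-centred profiles. Medial floor cells from E16 to P1 had 2, and 1 with no filter, stricter gates, no high-UMI cells or median centring. Lateral cells at P1 had 1, and 0 with stricter gates, 2 with summed UMIs and 3 with array weights; SCs at P7 had 1, and 3 with summed UMIs, 2 with only the P7 libraries and 3 with array weights. Lateral cells at P7 had 2, and 1 with only the P7 libraries. SCs from P1 to P7 had 2, and 1 with stricter gates. With stricter gates Anxa5 in HCs against SCs at E16 turned from -0.64 to 0.13 (adjusted p = 0.775). The cause of these shifts was not tested.

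Without the library as a block, roof cells had 2 called at E16 and 3 at P1 (in place of 4 and 5), and lateral cells 0 at P1 and P7. Replicate numbers shared by E16 and P1 do not pair libraries: deviations of same-numbered libraries correlated at -0.28 to 0.07. With that replicate block SCs from E16 to P1 had 1 called in place of 0 (Anxa5, 1.63), the same estimate as without P1 replicate 4, since E16 has no replicate 4 and the block takes up that library; the gain cannot be told apart from leaving that library out. In medial floor cells the block ended the Anxa2 call (adjusted p = 0.0546) and added Anxa5 (1.35, adjusted p = 0.0169).

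Leaving out 1 library at a time gave 2 to 3 for roof cells at E16, 0 to 1 for lateral cells at P1 and 0 to 2 at P7, 0 to 1 for SCs at P7, 1 to 2 for IHCs against OHCs at E16, 0 to 4 for medial floor cells and 0 to 1 for SCs from E16 to P1, and 1 to 3 for HCs and 1 to 2 for SCs from P1 to P7. With 1 P7 library left, it was assumed to vary like the others. Median centring moved the median of all genes by at most 0.16 and the other settings by -0.28 to 0.28. Roof cells at P7 could not be tested, and E14 libraries hold 17 to 26 HCs or SCs each, which limits their values.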

Other observations

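Sri (sorcin, a calcium-binding partner of Anxa7), picked after its values were seen, was at 159, 113, 77.1 and 81.9 CPM in P1 HCs and at 1020 and 833 CPM in P7 HCs, a rise of 3.04 with no overlap (adjusted p = 6.35e-07). P7 HCs exceeded P7 medial floor cells (221 and 206 CPM) in Sri by 2.06 (adjusted p = 2.73e-11), whereas at P1 they were lower, at -0.91 (adjusted p = 1.64e-06). At P7, OHCs had a mean of 1216 CPM and IHCs 389 CPM (-1.63, IHCs minus OHCs, adjusted p = 0.0242). Anxa7 itself was at 21.9 and 14.6 CPM in P7 HCs. Glial cells at P7, which entered no comparison, had 503 and 551 CPM of Anxa5 and 40.0 and 26.9 CPM of Anxa11.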
